A study of Mus musculus with 12 samples.

Results

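The genes that encode the proteins of the cytosolic ribosome were followed in mouse liver across genotype and time of day. Members were chosen by symbol, as Rpl, Rps or Rplp followed by a number, with pseudogene symbols left out, and by at least 10 reads in at least 3 of the 12 livers. Of 87 symbols of this form among the 38926 gene symbols counted, 80 were members: 44 of the large subunit (Rpl), 33 of the small subunit (Rps) and 3 of the acidic stalk (Rplp0, Rplp1, Rplp2). Of the Rps members, Rps3a2 and Rps3a3 are annotated in GENCODE as processed pseudogenes. All 80 also passed the low-count filter that left 14488 genes for testing. The RNA-seq data came from livers of 12-week-old male mice of a mixed 129Ola/C57BL6 background, with 3 wild-type (WT) and 3 Rev-erbα-/- livers taken in the light phase at ZT8, where ZT0 is lights on, and as many per genotype taken in the dark phase at ZT20. The knockout removes Nr1d1, which encodes the clock repressor REV-ERBα, in the whole animal and not in hepatocytes alone, and the line was kept by heterozygous breeding. No treatment is named for any group, and the mice were fed ad libitum under light and dark phases of 12 h.

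A ribosome carries nearly all of these proteins in equal number, and the mRNAs of the set are known to be made and translated in concert. Most start with a pyrimidine tract, the 5′ terminal oligopyrimidine (TOP) motif, through which the kinase mTOR controls their translation, and in liver their translation is known to follow the feeding rhythm more than their mRNA level does. Ribosomal protein genes are also known for processed pseudogenes, intronless copies of their mRNAs scattered over the genome. Only reads that aligned to a single place were counted here, so a read from a stretch that a gene shares with a copy was lost to both, and a single base that differs between them decides where a read is placed.

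Sequences of 2 groups of copies are shown. Between genotypes, the largest fitted difference of the set at ZT20 was that of Rps3a2, and the largest at ZT8 that of Rps15a. Rpl34, in neither group, also differed at ZT20, by 4.196 on the log2 scale. The sequences were read from the GENCODE M21 transcripts of the mm10 (GRCm38) genome, 75 bases each, the read length of the study. Capitals mark bases that differ between the sequences of a group. The first group is the gene of the small-subunit protein Rps3a1 (chr3:86137940-86142702, minus strand) and the intronless Rps3a2 (chr14:88123017-88123808, minus strand) and Rps3a3 (chr13:108670603-108671397, plus strand), which are members by their symbols but are annotated as processed pseudogenes. The stretch shown runs from base 594 to base 668, counted from the A of the start codon.
Rps3a1: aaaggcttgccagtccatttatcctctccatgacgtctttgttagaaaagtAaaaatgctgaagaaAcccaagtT
Rps3a2: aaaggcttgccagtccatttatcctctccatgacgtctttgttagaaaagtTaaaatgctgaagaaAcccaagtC
Rps3a3: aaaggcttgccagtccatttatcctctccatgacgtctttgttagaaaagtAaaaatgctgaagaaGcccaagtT
Over 792 coding bases, Rps3a1 and Rps3a2 differed at 4 positions (T216C, T534C, A645T and T668C) and Rps3a1 and Rps3a3 at 9. The first 215 bases were alike in all 3. Of the 718 windows of 75 bases, 65.5% were identical between Rps3a1 and Rps3a2 and 32.2% between Rps3a1 and Rps3a3, and none of either pair differed at more than 2 bases.

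The second group is Rps15a, another small-subunit gene (chr7:118104372-118116188, minus strand), and its processed pseudogene Rps15a-ps8 (chr4:53791070-53791456, minus strand), shown from base 215 to base 289 of the coding sequence.
Rps15a: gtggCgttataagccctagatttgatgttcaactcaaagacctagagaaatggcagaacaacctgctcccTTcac
Rps15a-ps8: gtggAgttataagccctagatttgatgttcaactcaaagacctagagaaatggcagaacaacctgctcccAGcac
These differed at 30 of 387 coding bases. The longest identical run was the 65 bases from 220 to 284. Unlike in the Rps3a genes, none of the 313 windows of 75 bases was identical, and 32.0% differed at no more than 2 positions.

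Between 17641809 and 26060192 reads per liver were counted on genes, and 58829 to 86205 of them on the members. Nr1d1 itself was counted at 129, 96.2 and 75.3 CPM (read counts scaled by library size and TMM) in the WT livers and at 63.0, 71.9 and 80.6 CPM in the Rev-erbα-/- livers at ZT8, and at 1.86 to 3.57 CPM in all 6 livers at ZT20. The counts are per symbol and do not separate deleted from remaining exons, so they do not check the genotype. Arntl, which REV-ERBα represses, was at 0.448 to 0.796 CPM in WT and 22.7 to 25.7 CPM in Rev-erbα-/- livers at ZT8. The 6 hepatocyte markers (Alb, Apoa1, Ttr, Cps1, Ass1 and Cyp2e1) summed to 58010 to 108400 CPM per liver, against 304 to 544 CPM for 6 Kupffer cell markers and 0.504 to 7.11 CPM for 6 neutrophil markers. The hepatocyte sum was 58010 to 80670 CPM in WT livers at ZT8 and 98110 to 108400 CPM in WT livers at ZT20, without overlap, and 65890 to 92040 CPM and 87260 to 95380 CPM in Rev-erbα-/- livers, with overlap. Its part in the time differences was not tested. In whole liver, fewer cells of a type and less RNA per cell cannot be told apart. Alignments of reads with several places numbered 2.64 ± 0.786 per gene read in WT and 2.44 ± 0.237 in Rev-erbα-/- livers at ZT8, and 1.63 ± 0.0635 and 1.38 ± 0.167 at ZT20 (mean ± SD, n = 3). This measure counts alignments from any repeated sequence in the library, not from ribosomal protein genes alone. It was higher at ZT8 in both genotypes, and its part in differences between the times was not tested. The labels do not say how the mice of a group were related or housed, so p-values measure the spread between these livers.

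The members together held 0.325 ± 0.0099% of gene reads in WT livers at ZT8, 0.319 ± 0.0184% in Rev-erbα-/- livers at ZT8, 0.338 ± 0.0113% in WT livers at ZT20 and 0.331 ± 0.0037% in Rev-erbα-/- livers at ZT20 (n = 3 each). The share in single livers ranged from 0.298% to 0.346%, and the ranges of the genotypes overlapped at both times. With TMM scaling, the summed level was 3069 to 3261 CPM in WT and 3071 to 3268 CPM in Rev-erbα-/- livers at ZT8. At ZT20 it was 3437 to 3467 CPM in WT and 3359 to 3386 CPM in Rev-erbα-/- livers, without overlap. In both genotypes the scaled sums at ZT20 lay above those at ZT8. Differences of these sums were not tested. Reads were spread unevenly over the members. The 10 that took the most reads held 55.3% of the summed CPM of the set. By mean over the 12 livers, 7 members lay at 100 CPM or more, 30 at 20 to under 100 CPM, 37 at 1 to under 20 CPM and 6 under 1 CPM.

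Rpl4, a large-subunit protein, took the most reads and was at 461, 450 and 433 CPM in WT livers and 447, 468 and 439 CPM in Rev-erbα-/- livers at ZT8. At ZT20 Rpl4 was at 485, 475 and 448 CPM in WT livers and 479, 475 and 467 CPM in Rev-erbα-/- livers. The genotypes overlapped at both times, and the fitted differences of Rpl4 between genotypes were 0.01 at ZT8 and 0.01 at ZT20 on the log2 scale, with 95% intervals from -0.15 to 0.17 at both times. Rpl8, which lies at the peptidyl transferase centre, was at 241 to 267 CPM in WT and 239 to 258 CPM in Rev-erbα-/- livers at ZT8, and at 290 to 298 CPM and 268 to 271 CPM at ZT20. Rps3, at the mRNA entry channel and also known as a DNA repair factor, was at 213 to 231 CPM in the 6 livers at ZT8 and at 230 to 241 CPM in the 6 at ZT20. None of these 3 genes passed the test between genotypes at either time.

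**Figure D1:**
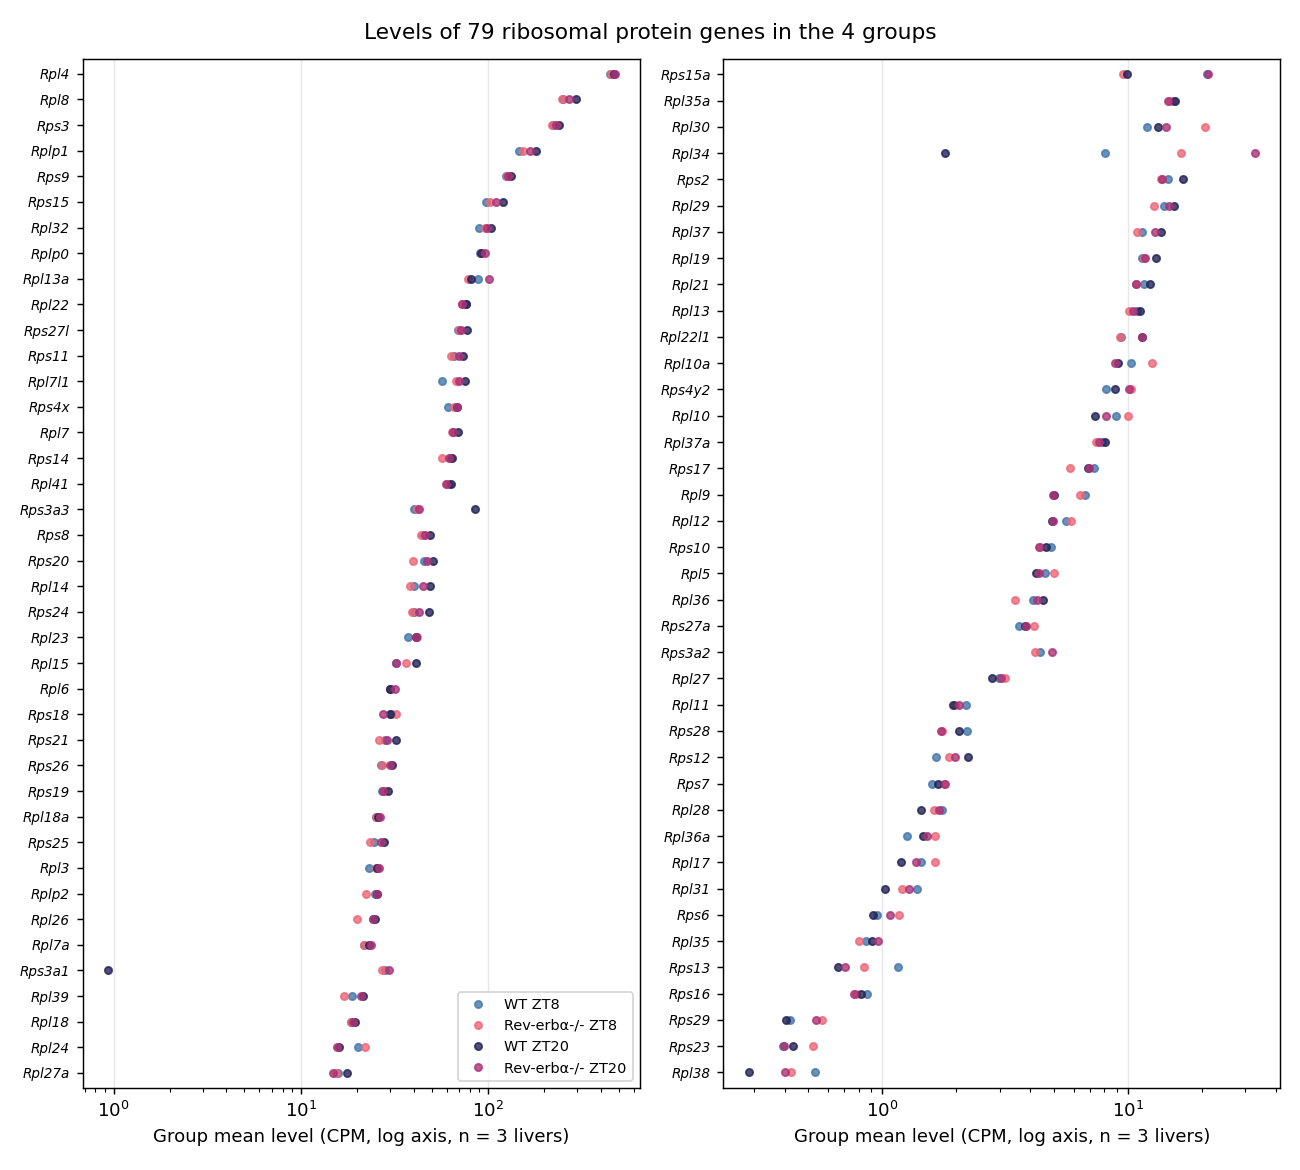
Mean CPM of 79 of the 80 members in the 4 groups (n = 3 livers each, log axis), ordered by the mean over all livers, from Rpl4 at 461 CPM to Rpl38 at 0.411 CPM. The 4 points of most genes lie close together. Rps3a1 and Rps3a3 have a group that stands apart, the points of Rps15a lie in pairs, and those of Rpl34 are spread out. Rps3a2 in WT livers at ZT20 had no read and is not drawn.

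Per kilobase of the main transcript, levels ranged from 324 CPM for Rplp1 to 0.466 CPM for Rps23, a 696-fold span. The main transcript was the shortest complete coding one marked as principal in GENCODE, or the longest where none was. It was long for some members, such as Rps20 (3706 bases) and Rps16 (1109 bases). Levels per kilobase and unique shares depend on this choice. The share of a transcript's 75-base words found in no other annotated gene moved with this level. It was 100% for Rps3, 95.1% for Rpl8 and 91.5% for Rpl4, and its median over the 79 members with a transcript in the annotation was 49.7%. The 14 members with a unique share of at least 75% had a median of 132 CPM per kb, the 47 between 25% and 75% had 24.1 CPM per kb, and the 18 under 25% had 8.81 CPM per kb (Spearman's rho 0.60 across 79 genes, which share the same libraries, as a description). Rps29, Rps23, Rps16 and Rpl38 lay under 2 CPM per kb with 48.7% to 69.3% of their words unique, so the share of unique words in the annotation did not order all genes.

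**Figure D2:**
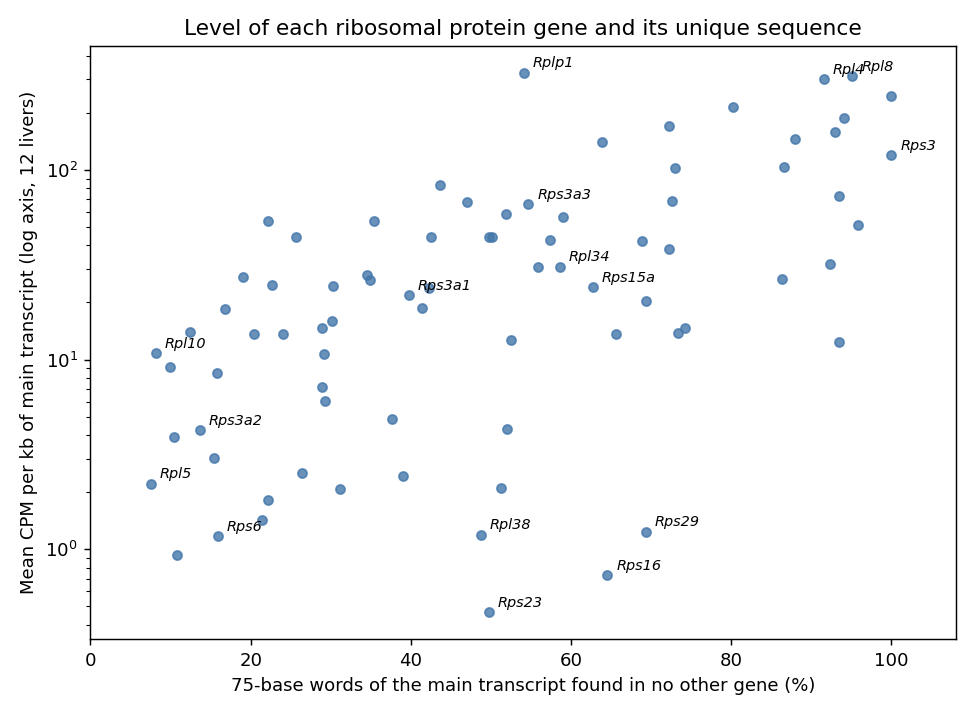
Each point is a member, with the share of its transcript's 75-base words that occur in no other annotated gene (%) against its mean CPM per kb over 12 livers (log axis). Members under 25% unique words have a median of 8.81 CPM per kb and members at 75% or more 132 CPM per kb.

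The reads that went to sequence copies were counted too. The files held 683 genes that resemble a member and are annotated as pseudogenes or carry a pseudogene symbol. For each, at least 10% of its 25-base words occur in that member. Of the 683, 85 had 10 reads in 3 livers. The 683 together held 0.152% to 0.174% of gene reads, or 48.4 to 51.5 reads for every 100 on members. For Rps29, 99.5% of the summed level of gene and copies lay on copies, for Rpl38 98.9% and for Rps16 98.4%. Rpl14 was at 43.0 CPM against 117 CPM on its copy Rpl14-ps1. Whether reads on a copy came from the gene's own transcript or from the copy was not tested.

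The members next to the limit of 10 reads were low in every group. Rpl38 had 4 to 18 reads per liver and Rps23 5 to 20, just inside, and Rpl3l had 2 to 10 and Rps27 2 to 9, just outside. Rps27, a zinc-finger protein of the small subunit, had 1.48% of its words unique, and Rpl23a had at most 9 reads. Rpl10l and Rpl39l, known from testis, had at most 1 read in any liver, and Rpl3l is known from muscle. Rps12l1 and Rps12l2 had at most 2. Counts of 0 to 3 reads correspond to at most 0.115 to 0.170 CPM, depending on the library.

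Paralogs that the liver did use did not pass the test between genotypes. Rps27l, which replaces Rps27 in part of the ribosomes and is a p53 target, was at 63.5 to 74.3 CPM at ZT8 and 67.3 to 82.9 CPM at ZT20. Rpl22l1 was at 7.98 to 12.4 CPM beside Rpl22 at 65.8 to 81.7 CPM. Rps4y2, which RefSeq lists as Rps4l and as a transcribed pseudogene, was at 4.53 to 12.4 CPM, and its partner Rps4x on the X chromosome at 59.0 to 70.8 CPM. Rpl3 was at 20.7 to 28.7 CPM, Rpl7 at 61.4 to 70.0 CPM and Rpl10, with 8.14% of its words unique, at 5.99 to 11.2 CPM. None of these 8 genes passed the threshold in any of the 5 comparisons.

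Rpl7l1, the paralog of Rpl7 that acts in large-subunit assembly, was at 58.9, 57.5 and 54.4 CPM in WT livers at ZT8. It was at 61.0, 68.4 and 72.7 CPM in Rev-erbα-/- livers at ZT8, at 78.4, 77.8 and 70.4 CPM in WT livers at ZT20 and at 68.4, 67.0 and 73.4 CPM in Rev-erbα-/- livers at ZT20. The WT livers at ZT8 were the lowest and overlapped no other group. In WT the rise of Rpl7l1 to ZT20 was 0.41 ± 0.0767 on the log2 scale (SE, edgeR adjusted p = 0.00106). The rise of Rpl7l1 with genotype at ZT8, 0.24 ± 0.077 (adjusted p = 0.064), and the difference between the genotype effects at the 2 times, 0.36 ± 0.108 (adjusted p = 0.0654), missed the threshold.

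Rev-erbα-/- livers were compared with WT livers at ZT8, when REV-ERBα is abundant in WT liver. Among the 80 members only Rps15a passed the threshold of 0.05, and it was lower, while 6 had an unadjusted p under 0.05. Of all 14488 tested genes 8.45% passed, 4.4% as higher and 4.04% as lower (edgeR's quasi-likelihood test, Benjamini-Hochberg adjusted over all tested genes). The median fitted difference of the members was -0.02 on the log2 scale, against 0.00177 for all tested genes. The middle 50% of the members lay between -0.10 and 0.10, and 77 of the 80 fitted values were smaller than 0.5 in size. For 57 members the 95% interval lay within a 1.5-fold change in either direction. The groups did not overlap for 7 of 80 members, beside 25.6% of all tested genes. The count of called members was 2 without WT replicate 1 or Rev-erbα-/- replicate 1 and 3 without Rev-erbα-/- replicate 3.

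At ZT20, 6 of the 80 members passed, beside 3.63% of all tested genes. Rps3a1, Rps3a2, Rpl34, Rps15a and Rpl13a were higher in Rev-erbα-/- than in WT livers (5 of 80, beside 2.09% of all genes), and Rps3a3 was lower (beside 1.54%). The median of the members was -0.04, and for 58 of them the interval lay within 1.5-fold. The groups did not overlap for 19 of 80 members, the 6 called among them, beside 22.5% of all tested genes. Without WT replicate 2, 4 members passed. The genotype effect differed between ZT8 and ZT20 for 5 members (Rps3a1, Rps3a2, Rps3a3, Rps15a and Rpl13a), beside 5.88% of all genes. The difference, ZT8 minus ZT20, was positive for Rps3a3 (beside 3.05% of all genes) and negative for the other 4 (beside 2.83%). The comparisons share groups of livers, so their results are not independent of each other.

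**Figure D3:**
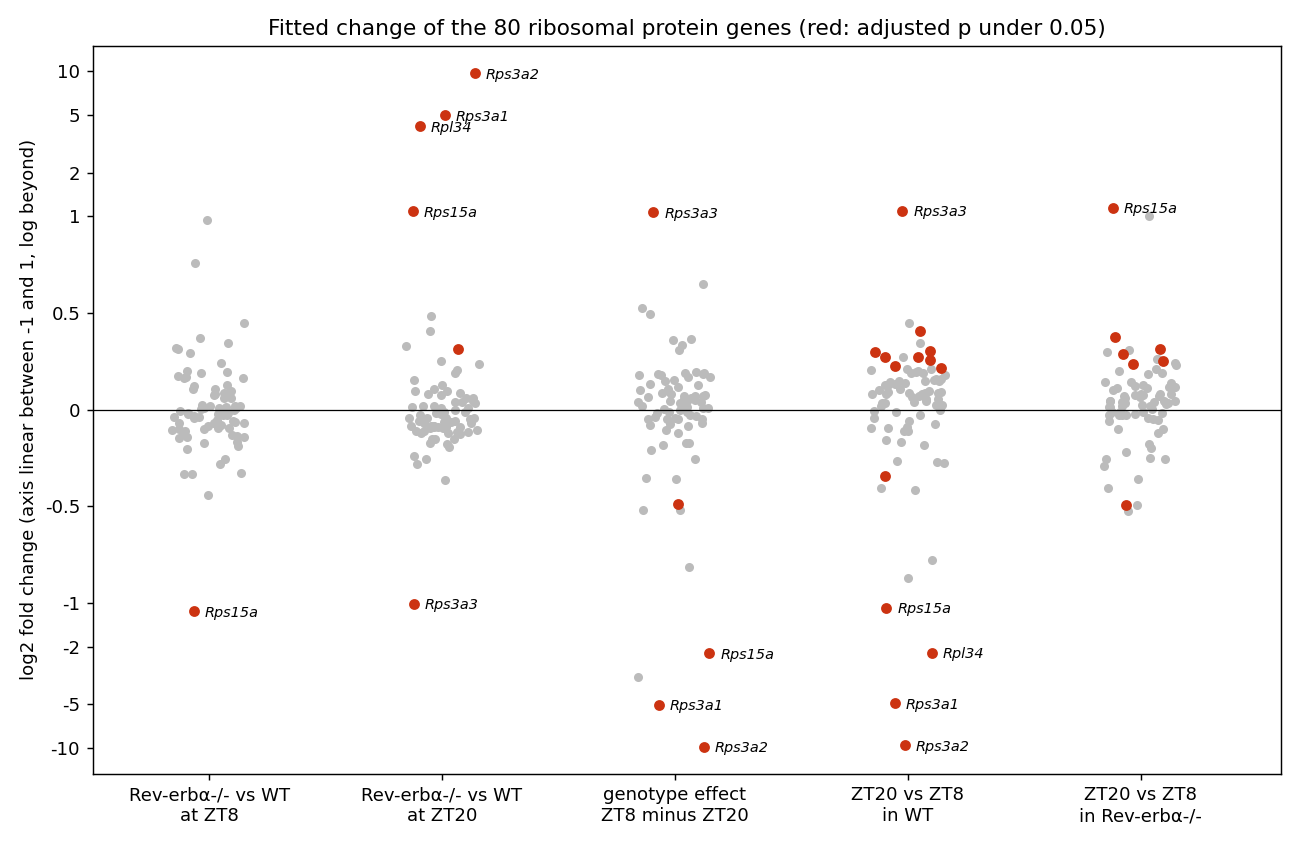
Fitted log2 fold change of each of the 80 members in the 5 comparisons (axis linear between -1 and 1 and logarithmic beyond), in red where the adjusted p is under 0.05, with names for called genes beyond 0.5 in size. Between genotypes 1 member is red at ZT8 and 6 at ZT20, and the values far from 0 belong to Rps3a1, Rps3a2, Rps3a3, Rps15a and Rpl34.

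The differences of the Rps3a genes set the WT livers at ZT20 apart from the other 9. Rps3a1 was at 27.5, 28.3 and 28.2 CPM in WT livers and 23.0, 31.6 and 26.4 CPM in Rev-erbα-/- livers at ZT8. At ZT20 it was at 1.02, 0.84 and 0.939 CPM in WT livers and at 28.1, 30.0 and 30.2 CPM in Rev-erbα-/- livers. The 3 WT livers at ZT20 thus lay far below the rest, without overlap. The fitted difference of Rps3a1 between genotypes at ZT20 was 4.97 ± 0.139 (adjusted p = 7.53e-12), and the same WT livers gave a time difference of -4.90 ± 0.139 in WT (adjusted p = 4.87e-12).

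Rps3a2 followed the same livers, with 4.02 to 5.42 CPM in 9 livers and no read in any WT liver at ZT20. Against a floor of 3 reads per library, 0.133 CPM on average, Rps3a2 was at least 37.0-fold higher in Rev-erbα-/- livers at ZT20 (adjusted p = 1.52e-08) and at least 32.9-fold higher in WT livers at ZT8 (adjusted p = 7.03e-09). Rps3a3 moved the other way, at 81.4, 89.7 and 85.6 CPM in WT livers at ZT20 and 39.3 to 43.3 CPM in the other 9. Its difference between genotypes at ZT20 was -1.01 ± 0.0653 (adjusted p = 1.73e-07), and in WT it was 1.10 ± 0.0656 higher at ZT20 than at ZT8 (adjusted p = 1.8e-08). None of the 3 genes differed beyond the threshold between genotypes at ZT8, nor between the times in Rev-erbα-/- livers.

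The 3 Rps3a genes and their other copies were also summed, an alternative chosen after these values were seen. The sum was 72.5 ± 1.16 CPM in WT and 73.1 ± 5.09 CPM in Rev-erbα-/- livers at ZT8, and 86.7 ± 4.03 CPM and 77.1 ± 0.827 CPM at ZT20 (SD, n = 3). The genotypes then differed by -0.17 ± 0.0657 at ZT20 (adjusted p = 0.216), of opposite sign to Rps3a1 alone. In WT the sum rose by 0.26 ± 0.0659 from ZT8 to ZT20 (adjusted p = 0.00866).

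Rps15a gave another grouping of the livers. It was at 15.9, 21.9 and 25.4 CPM in WT livers and 8.88, 10.8 and 8.91 CPM in Rev-erbα-/- livers at ZT8, and at 8.42, 11.0 and 10.3 CPM in WT livers and 20.7, 22.3 and 20.2 CPM in Rev-erbα-/- livers at ZT20. The genotypes did not overlap at either time and lay in opposite order, with fitted differences of -1.14 ± 0.155 at ZT8 (adjusted p = 0.000422) and 1.09 ± 0.152 at ZT20 (adjusted p = 0.000779). Rps15a-ps8, the copy whose sequence is shown above, ran opposite. It was at 7.28, 2.29 and 0.051 CPM in the 3 WT livers at ZT8, at 13.0 to 15.2 CPM in Rev-erbα-/- livers at ZT8 and 12.7 to 16.5 CPM in WT livers at ZT20, and at 0, 0 and 0.044 CPM in Rev-erbα-/- livers at ZT20. Within the WT livers at ZT8, the liver with the most Rps15a had the least Rps15a-ps8. Rps15a-ps7, in which 78.3% of the 25-base words occur in Rps15a against 18.7% in Rps15a-ps8, was at 24.8 to 29.8 CPM in all 12 livers.

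Summed with its copies, Rps15a was at 57.2 to 68.1 CPM in the 12 livers. The fitted differences between genotypes were then -0.02 ± 0.071 at ZT8 (adjusted p = 0.881) and -0.14 ± 0.0707 at ZT20 (adjusted p = 0.404), and no comparison of the sum passed.

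For Rps13, the reads lay almost wholly outside the gene that encodes the protein. The gene itself (chr7:116331505-116334195) was at 0.392 to 1.78 CPM, and 96.3% of the summed level lay on copies. Rps13-ps1, on chromosome 8, was at 9.55, 2.49 and 0 CPM in the 3 WT livers at ZT8, at 17.055 to 20.046 CPM in Rev-erbα-/- livers at ZT8, at 21.1 to 23.1 CPM in WT livers at ZT20 and at 0 to 0.042 CPM in Rev-erbα-/- livers at ZT20. Rps13-ps2, on chromosome 7, was at 11.1, 18.8 and 23.3 CPM, 0 to 0.049 CPM, 0 CPM and 23.0 to 26.9 CPM in the same order of groups. The livers that placed reads on Rps15a-ps8 were those that placed them on Rps13-ps1. The sum of Rps13 and its copies was 18.1 to 27.5 CPM in the 12 livers. In Rev-erbα-/- livers it was 18.1 to 21.3 CPM at ZT8 and 24.1 to 27.5 CPM at ZT20, without overlap. That rise of 0.38 ± 0.0903 passed in edgeR (adjusted p = 0.00986), and no other comparison of the sum did.

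Rpl34, a large-subunit protein, spread widely within 1 group, with a coefficient of variation of 85.4% in WT livers at ZT8. It was at 15.5, 7.03 and 1.78 CPM in the 3 WT livers at ZT8 and at 15.8, 17.8 and 15.4 CPM in the Rev-erbα-/- livers at ZT8. At ZT20 it was at 2.00, 1.55 and 1.83 CPM in WT livers and at 32.1, 33.8 and 32.9 CPM in Rev-erbα-/- livers. The genotypes did not overlap at ZT20, where the fitted difference was 4.196 ± 0.618 (adjusted p = 0.00805). Without 1 WT liver at ZT20 (replicate 2) the adjusted p was 0.054, and the difference was 3.82 to 4.28 over 19 alternatives. In WT, Rpl34 was 2.20 ± 0.642 lower at ZT20 than at ZT8 (adjusted p = 0.0342), but the groups overlapped, and the call was lost under 12 of 19 alternatives. Its 6 copies in the files summed to a mean of 0.465 CPM, and Rpl34-ps1, which shares the most 25-base words with it, was at 0.104 to 0.697 CPM.

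Rpl30, another large-subunit protein, varied widely in 3 of the 4 groups. It was at 22.6, 9.22 and 4.12 CPM in WT livers and 17.8, 22.8 and 21.3 CPM in Rev-erbα-/- livers at ZT8. At ZT20 it was at 3.86, 10.7 and 25.3 CPM in WT livers and 24.4, 14.5 and 4.00 CPM in Rev-erbα-/- livers. The coefficients of variation were 79.8%, 12.4%, 82.4% and 71.4% in this order, all comparisons overlapped, and Rpl30 passed in none. Between genotypes its fitted difference at ZT8 was 0.76 with a 95% interval from -1.16 to 2.68. Summed with its copies, Rpl30 still ran from 8.14 to 30.55 CPM.

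**Figure D4:**
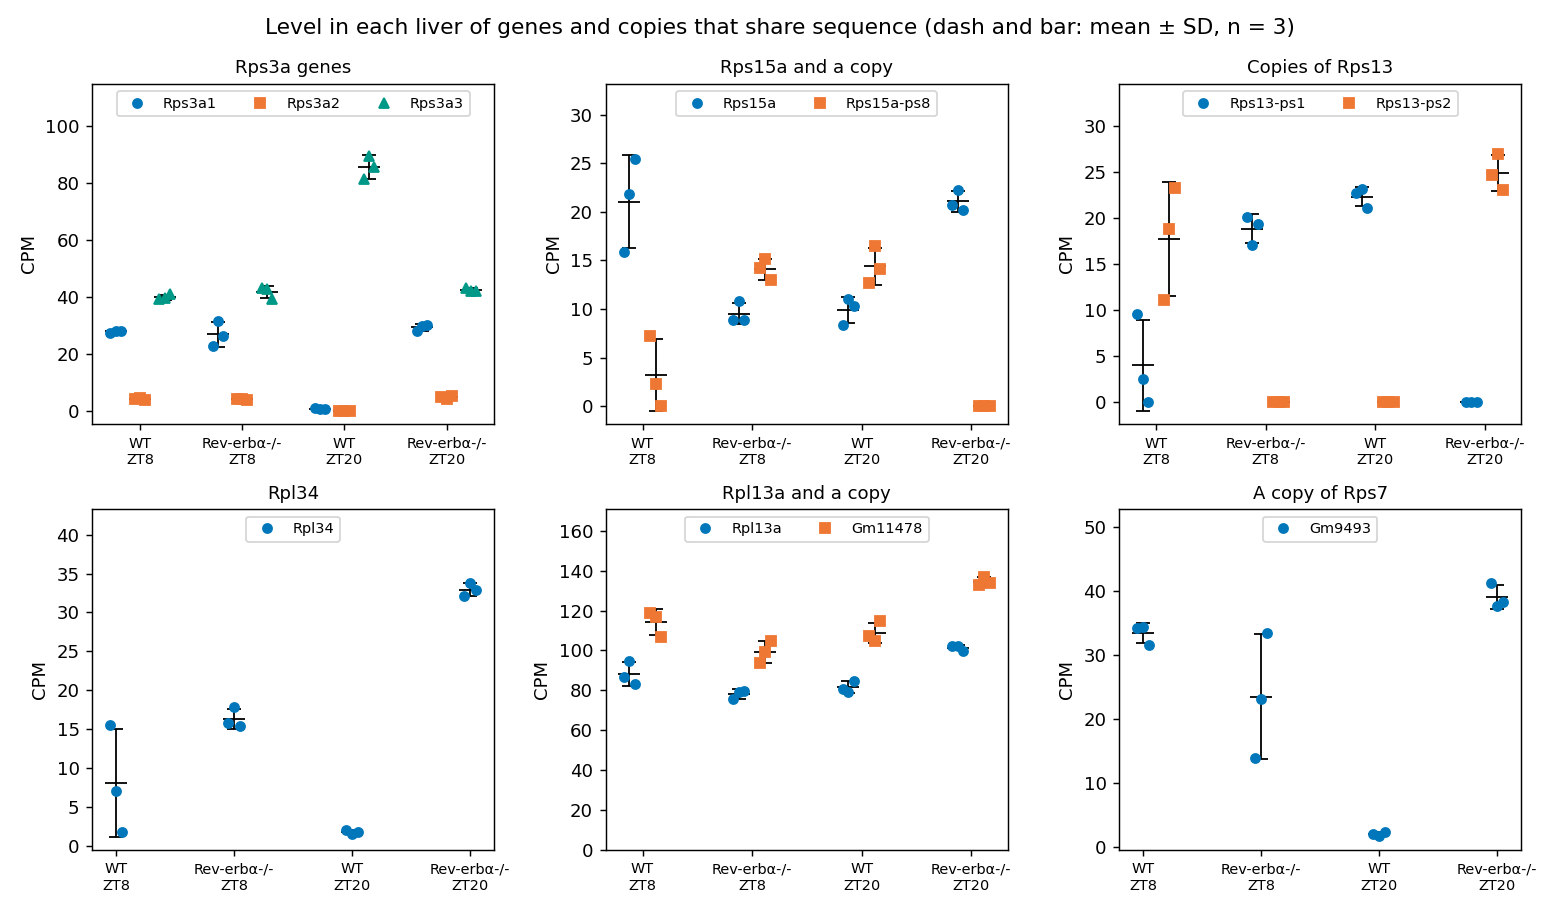
CPM in each liver (points, n = 3 per group) with mean ± SD (dash and bar) for the Rps3a genes, Rps15a and Rps15a-ps8, 2 copies of Rps13, Rpl34, Rpl13a with Gm11478, and Gm9493, a copy of Rps7. Rps3a1 and Rps3a2 fall where Rps3a3 rises, Rps15a and Rps15a-ps8 take opposite values, and Rpl13a and Gm11478 move together.

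Rpl13a, which besides its place in the large subunit is known from the GAIT complex of inflammatory translation control, moved together with its copy. It was at 86.5, 94.6 and 82.9 CPM in WT livers and 75.4, 79.2 and 79.7 CPM in Rev-erbα-/- livers at ZT8. At ZT20 it was at 80.5, 79.1 and 84.8 CPM in WT livers and 102, 102 and 99.9 CPM in Rev-erbα-/- livers. The Rev-erbα-/- livers at ZT20 lay above the other 9. The fitted difference between genotypes was -0.17 ± 0.0657 at ZT8 (adjusted p = 0.124) and 0.32 ± 0.0654 at ZT20 (adjusted p = 0.0126), and these effects differed by -0.49 ± 0.0927 (adjusted p = 0.00522). At ZT20 the adjusted p of Rpl13a was 0.0545 without WT replicate 1, 0.0876 without WT replicate 2 and 0.0609 without Rev-erbα-/- replicate 2. Gm11478, a processed pseudogene on chromosome 11 in which 65.9% of the 25-base words occur in Rpl13a, was at 93.5 to 119 CPM in the other 9 livers and 133 to 137 CPM in Rev-erbα-/- livers at ZT20. Summed with its copies, Rpl13a was 0.31 ± 0.0714 higher in Rev-erbα-/- livers at ZT20 (adjusted p = 0.0252) and 0.41 ± 0.0715 higher at ZT20 than at ZT8 in Rev-erbα-/- livers (adjusted p = 0.00115).

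Summing every member with its copies left 78 sums, of which 1 differed between genotypes at ZT8 and 3 at ZT20, beside 8.49% and 3.59% of all genes. At ZT8 it was Rpl36a, lower by a fitted -0.62 ± 0.151 (adjusted p = 0.0196). The gene was at 0.947 to 1.87 CPM in all livers, and the sum followed its copy Gm13194, at 3.70, 5.93 and 7.02 CPM in WT livers at ZT8 and 1.81 to 3.02 CPM in the other 9. At ZT20 they were Rpl13a, Rpl34 and Rps7. Rps7 itself was at 1.15 to 2.33 CPM, and its sum followed Gm9493 (chr19:23619749-23620319, plus strand), which was at 34.1, 34.3 and 31.5 CPM in WT livers and 13.8, 23.1 and 33.3 CPM in Rev-erbα-/- livers at ZT8. Gm9493 was at 2.00, 1.68 and 2.24 CPM in WT livers and 41.2, 37.6 and 38.2 CPM in Rev-erbα-/- livers at ZT20. These copies were named after their values were seen.

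Members lay on 19 chromosomes, with 14 on chromosome 7, and 3 lay within 5 Mb of Nr1d1 on chromosome 11, where the DNA around a targeted allele in a mixed background can come from the donor strain. They were Rpl19 (chr11:98026710-98030492, 0.737 Mb away), Rpl23 (chr11:97777527-97782437, 0.986 Mb away) and Rpl27 (chr11:101442298-101445529, 2.67 Mb away). Rpl19 was at 10.5 to 12.6 CPM at ZT8 in both genotypes and at 12.3 to 13.7 CPM in WT and 11.5 to 12.2 CPM in Rev-erbα-/- livers at ZT20. Rpl23 was at 35.7 to 45.3 CPM and Rpl27 at 2.37 to 3.83 CPM over the 12 livers. None of the 3 passed in any comparison.

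Time of day was compared within each genotype. In WT livers, 14 of 80 members differed between ZT20 and ZT8, 9 higher and 5 lower at ZT20, beside 27.7% of all tested genes (13.8% higher and 13.9% lower). Without WT replicate 3 at ZT20, 8 members passed. The share of members that passed, 17.5%, was below that background. The median change was 0.08 on the log2 scale (all tested genes -0.000206), with 53 of 80 fitted values above 0, and for 55 members the interval lay within 1.5-fold. The 9 that rose included members with few words shared with other genes. Rpl8, at 241, 267 and 248 CPM at ZT8 and 298, 296 and 290 CPM at ZT20, rose by 0.22 ± 0.0708 (adjusted p = 0.0279). Rps15, a protein of the small-subunit head, was at 96.2, 107 and 90.0 CPM at ZT8 and 126.5, 117.2 and 117.5 CPM at ZT20, a rise of 0.30 ± 0.0744 (adjusted p = 0.00732).

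Rpl14 was at 40.2, 42.3 and 38.5 CPM at ZT8 and 46.7, 50.6 and 49.1 CPM at ZT20 in WT livers, a rise of 0.28 ± 0.0682 (adjusted p = 0.00727), and its copy Rpl14-ps1 was at 102 to 112 CPM and 122 to 130 CPM. Rps24, mutated in Diamond-Blackfan anaemia, rose by 0.27 ± 0.0746 (adjusted p = 0.0135) and Rpl37 by 0.26 ± 0.0893 (adjusted p = 0.0419). The stalk binds the translation factors that hydrolyse GTP. Of its genes, Rplp1 was at 154, 155 and 129 CPM at ZT8 and 179, 165 and 197 CPM at ZT20, a rise of 0.30 ± 0.0908 (adjusted p = 0.0217). The adjusted p of Rplp1 was 0.101 without replicate 3 at ZT8, and 0.0516 and 0.111 without replicates 1 and 3 at ZT20. Rplp0 was at 82.1 to 96.5 CPM at ZT8 and 89.8 to 96.2 CPM at ZT20 in WT, and Rplp2 at 22.7 to 27.3 CPM and 24.1 to 27.0 CPM. The time differences of Rplp0, with a 95% interval from -0.13 to 0.17, and of Rplp2, from -0.14 to 0.20, missed the threshold.

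Rps3a3 and Rpl7l1 also rose, and Rps3a1, Rps3a2, Rps15a and Rpl34 were among those that fell. The other that fell was Rpl24, which joins the subunits as a bridge. It was at 21.3, 19.63 and 19.98 CPM at ZT8 and 17.6, 15.7 and 14.8 CPM at ZT20 in WT livers (-0.34 ± 0.0953, adjusted p = 0.0142). Without replicates 2 or 3 at ZT20 the adjusted p was 0.0558 or 0.0515. Its copy Gm12254 was at 32.7 to 35.6 CPM at ZT8 and 36.9 to 41.1 CPM at ZT20, and the sum of Rpl24 and its copies differed by 0.02 ± 0.0661 (adjusted p = 0.875).

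In Rev-erbα-/- livers, 7 of 80 members differed between the times, 6 higher and 1 lower at ZT20, beside 17.5% of all tested genes (8.79% higher and 8.67% lower). Without Rev-erbα-/- replicate 2 at ZT20, 3 members passed, and 4 without replicate 1 at ZT20 or replicates 1 or 3 at ZT8. The median change was 0.05, and for 57 members the interval lay within 1.5-fold. Rps15a rose by 1.14 ± 0.154 (adjusted p = 2e-04) and Rpl13a by 0.38 ± 0.0656 (adjusted p = 0.0012). Rpl14 was at 38.3, 39.7 and 36.3 CPM at ZT8 and 43.3, 46.2 and 45.1 CPM at ZT20, a rise of 0.24 ± 0.0685 (adjusted p = 0.0264), so the gene alone passed in both genotypes. Summed with its copy, Rpl14 rose by 0.14 ± 0.0717 in Rev-erbα-/- livers (adjusted p = 0.197), which missed the threshold. In WT livers that sum rose by 0.26 ± 0.0717 (adjusted p = 0.014). Rpl39 rose by 0.32 ± 0.0991 (adjusted p = 0.0398), Rpl26 by 0.29 ± 0.0838 (adjusted p = 0.028) and Rps20 by 0.25 ± 0.078 (adjusted p = 0.0356). Rps20 was at 39.9, 40.8 and 38.7 CPM in Rev-erbα-/- livers at ZT8, below the other 9 livers at 45.1 to 57.4 CPM. The calls of Rpl39, Rpl26 and Rps20 were each lost when 1 of several livers was left out, with adjusted p up to 0.15, 0.106 and 0.113. Rpl24 fell here too, by a fitted -0.49 ± 0.0953 (adjusted p = 0.00252), from 24.6, 19.4 and 21.6 CPM to 15.8, 15.5 and 15.3 CPM. Its sum with copies differed by -0.14 ± 0.0661 (adjusted p = 0.183).

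Over the 5 comparisons, 18 of 80 members passed at least once and 62 never, beside 37.1% of all tested genes that passed at least once. Apart from Rps3a1, Rps3a2, Rps3a3, Rps15a and Rpl34, the called differences were small, at most 0.49 in size on the log2 scale (Rpl24). Within groups, the median coefficient of variation was 8.24% for the 80 members against 9.35% for all tested genes, and 4.96% for the 37 members at 20 CPM or more against 6.15% for the 5882 tested genes at that level. The deviations of the 80 members from the group means had a median pairwise correlation of 0.09, against -0.001 for all tested genes. For the 37 members at 20 CPM or more it was 0.16, without a value for all genes at that level. These are descriptions of genes that share the same libraries.

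Other genes of ribosome production and growth were followed in lists set by function. Gnb2l1, the scaffold RACK1 of the small subunit, was at 302 to 330 CPM at ZT8 and 343 to 366 CPM at ZT20 and passed in no comparison, with an adjusted p of 0.187 for time in WT and 0.0792 in Rev-erbα-/- livers. Of 20 translation factors and other genes known for a TOP start, 0 differed between genotypes at either time (unadjusted, 1 at ZT8 and 3 at ZT20). In WT 4 of 20 differed with time, a smaller share than the 27.7% of all genes: Eif4b fell by 0.43 and Pabpc1 by 0.43 on the log2 scale, and Nap1l1 and Eef1b2 rose by 0.32 and 0.21.

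Ribosome biogenesis factors assemble the subunits, mostly in the nucleolus. At ZT8, 6 of 34 were higher in Rev-erbα-/- livers and none lower, beside 4.4% and 4.04% of all tested genes, with a median of 0.24 and 32 of 34 fitted values above 0. Nop58, a core protein of box C/D particles, was at 18.6, 20.6 and 18.7 CPM in WT livers and 32.4, 32.7 and 26.5 CPM in Rev-erbα-/- livers at ZT8 (0.66 ± 0.127, adjusted p = 0.00508). Rrp12, an export factor of pre-ribosomes, was at 8.71, 9.02 and 7.83 CPM and 11.9, 11.4 and 17.0 CPM (0.66 ± 0.149, adjusted p = 0.0128). At ZT20, 0 of the 34 passed (5 at an unadjusted p under 0.05), with a median of -0.02. The genotype effect differed between the times for 3 of 34, all more positive at ZT8, beside 5.88% and 3.05% of all tested genes. The differences were 0.69 for Nop58 and 0.60 for Gnl3. In Rev-erbα-/- livers 11 of 34 differed with time, 10 of them lower at ZT20, beside 17.5% and 8.67% of all tested genes, led by Rrp9 (-0.86 ± 0.133, adjusted p = 0.000504) and Gnl3 (-0.83 ± 0.106, adjusted p = 9.5e-05), a nucleolar GTPase. In WT 12 of 34 differed, 7 higher and 5 lower, beside 27.7% of all genes. The difference between this list and the ribosomal protein genes was not tested. Sums of 6 proliferation markers (Mki67, Top2a, Ccnb1, Cdk1, Birc5 and Ccna2) were 7.22 to 8.95 CPM in WT and 9.30 to 17.3 CPM in Rev-erbα-/- livers at ZT8. At ZT20 the sums were 5.40 to 8.32 CPM and 7.38 to 15.3 CPM, with overlap. All 5 markers tested had fitted differences above 0 at both times. In edgeR 0 were called at ZT8 and 1 at ZT20 (2 at an unadjusted p under 0.05 at each time). The part of these markers in the differences of the biogenesis list was not tested. At ZT8 the fitted differences of all 6 Kupffer cell markers were below 0 (median -0.47, 0 called in edgeR and 4 at an unadjusted p under 0.05) and those of 5 of 6 hepatocyte markers above 0 (median 0.32, 0 called and 4 unadjusted), and their part was not tested either.

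Of 21 genes of mTOR, MYC and related growth signalling, 2 were lower in Rev-erbα-/- livers at ZT8 and none higher. Of the list 9.52% thus passed, close to the 8.45% of all tested genes (4.04% lower). Eif4ebp1, the translation repressor that mTOR inactivates, was at 36.3, 40.5 and 38.6 CPM in WT and 28.4, 26.2 and 26.8 CPM in Rev-erbα-/- livers (-0.50 ± 0.0931, adjusted p = 0.00363), and Eif4ebp2 differed by -0.30 ± 0.0726 (adjusted p = 0.0178). At ZT20 0 of 21 passed (3 unadjusted), and the genotype effect on Eif4ebp1 differed between the times by -0.52 ± 0.132 (adjusted p = 0.0306). Of the 75 mitochondrial ribosomal proteins tested, which make up the other ribosome of the cell, 2 differed between genotypes at ZT8 (Mrpl32 and Mrps10, both higher) and 2 at ZT20, beside 8.45% and 3.63% of all genes. With time in WT 17 of 75 differed, 15 of them higher at ZT20, a smaller share than the 27.7% of all genes. Of 77 genes of oxidative phosphorylation tested, 31 differed with time in WT, 29 higher at ZT20 (beside 27.7% and 13.8% of all genes) with a list median of 0.20, and 4 differed in Rev-erbα-/- livers (beside 17.5%). Of 41 tested genes with a pseudogene symbol of the ribosomal proteins, 1 differed between genotypes at ZT8 (all genes 8.45%), 3 at ZT20 (3.63%), 5 with time in WT (27.7%) and 5 with time in Rev-erbα-/- livers (17.5%), so the shares with time were below those of all genes.

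**Figure D5:**
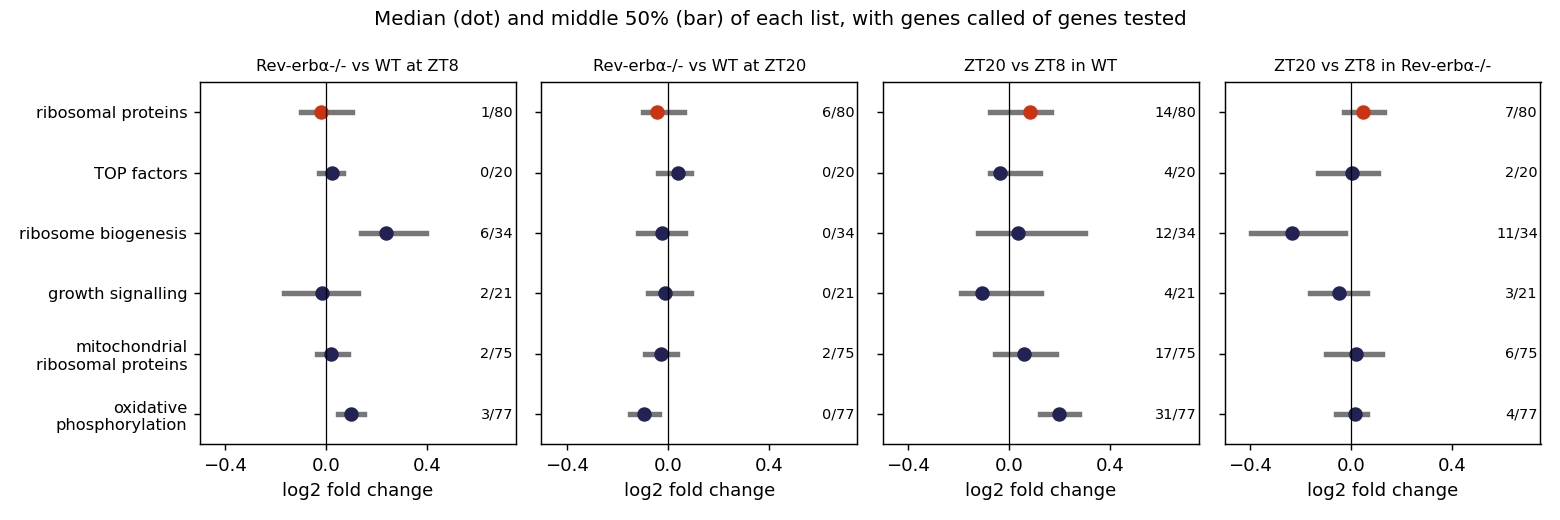
Median log2 fold change (dot) and middle 50% of values (bar) for the ribosomal protein genes (red) and 5 other lists in 4 comparisons, with the number of genes called of the number tested at the right. The ribosomal protein genes lie near 0 throughout, with 1 of 80 called at ZT8, and ribosome biogenesis has a median of 0.24 between genotypes at ZT8.

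Promoters of 58 members were found in the RefSeq table of GRCm38 (250 bases before to 50 after each start) and searched on both strands, as a description. The core CCGGAAG of ETS-family sites was in 23 of 58 (39.7%), against 9.12% of all 27025 promoters of the same length. The nuclear receptor core AGGTCA, which REV-ERBα sites contain, was in 4 of 58 (6.90%), against 16.04% of all promoters. These 4 were Rpl24, Rpl35a, Rps3 and Rps4x. The E-box CACGTG was in 5 of 58 (8.62%; Rpl13a, Rpl14, Rpl19, Rpl23 and Rpl34), against 7.24% of all. A match is no site, and no match says only that these letters are not in the window.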

How the data were processed

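Total RNA of 12 mouse livers was sequenced by the authors from poly(A) libraries with 75-base reads, aligned with TopHat to mm10 and counted with HTSeq on gene symbols, without strand and from uniquely mapped reads. The authors deposited raw read counts per gene and liver, and the 5 summary lines of each file were left out of library sizes. Counts came from 17641809 to 26060192 reads per liver, so 3 reads, the floor used, were 0.115 to 0.170 CPM. The floor covers counting error only. Low genes were removed with filterByExpr, and 14488 genes were fitted in edgeR 4.0.16 (R 4.3.3) with TMM scaling, a mean for each of 4 groups and the quasi-likelihood test. P-values were Benjamini-Hochberg adjusted over all tested genes, with a threshold of 0.05. Fold changes are log2 with SE. The 5 comparisons were genotype at each time, their difference, and time in each genotype. The test was checked on simulated counts.

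Members and lists were chosen with earlier results of these data known. Genes named in the text were those called, up to 5 per direction and comparison by size, with the most abundant members, the stalk, paralogs, genes near Nr1d1 and members next to the read limit. Rps24, Rpl37, Rpl30, Rps13, Rps7, Rpl36a, Rps29, Rps16 and the copies were named outside this rule, after their values were seen, and have no alternatives of their own. Copies were GENCODE M21 genes annotated as pseudogenes or with a pseudogene symbol that shared at least 10% of their 25-base words with a member. Each was assigned to the member with the largest share, and other genes that share words with a member were left out. Alternatives were DESeq2 1.42.0, its size factors, other scaling, no filter, the replicate number as a block, only the livers compared, each liver left out, and, chosen after seeing the data, copies summed into their gene. Replicate numbers did not pair the livers. Some genes are not reported here by name.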

Additional observations from a re-analysis of the deposited data

Results flagged for a closer look

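For 5 members the genotype effect (Rev-erbα-/- against WT) differed between ZT8 and ZT20 in edgeR's quasi-likelihood test of the difference itself. Of these, Rps3a2 and Rps3a3 are annotated as processed pseudogenes. The effect at ZT8 minus that at ZT20 was -5.025 ± 0.173 (SE, log2) for Rps3a1 (adjusted p = 8.51e-11) and 1.07 ± 0.0927 for Rps3a3 (adjusted p = 4.34e-06). For Rps3a2 the fitted value was -9.805 ± 0.513 (adjusted p = 1.1e-07), which is no bound, since WT livers at ZT20 had no read. Rps15a gave -2.227 ± 0.217 (adjusted p = 2.48e-05) and Rpl13a -0.489 ± 0.0927 (adjusted p = 0.00522). With sequence copies summed into each gene, Rpl13a gave -0.50 ± 0.101 (adjusted p = 0.00797), Rps3a1 0.18 ± 0.0932 (adjusted p = 0.299) and Rps15a 0.11 ± 0.1 (adjusted p = 0.588).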

How the results depend on the processing

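Of 521 values of named genes under the alternatives, 470 kept their direction and side of the threshold, 43 lost the threshold and 8 changed sign. All 8 came from summing copies: Rps3a1 gave -0.169 between genotypes at ZT20, 0.182 for the difference of the genotype effects and 0.258 for time in WT, Rps15a gave -0.136, 0.112, 0.064 and, for time in Rev-erbα-/-, -0.049, and Rpl24 gave 0.017 for time in WT. With copies summed, 3 genes passed at ZT20, 3 for the difference of the effects and 4 for time in Rev-erbα-/-. At ZT8, 2 genes passed in DESeq2 and 2 with its size factors. Without the 10 most abundant genes, the share of reads on members was 0.3783% and 0.3747% at ZT8 (WT, Rev-erbα-/-) and 0.407% and 0.3951% at ZT20. With 1 liver left out, members called numbered 1 to 3 at ZT8, 4 to 6 at ZT20, 5 to 6 for the difference, 8 to 16 for time in WT and 3 to 9 in Rev-erbα-/-. Their medians ran from -0.0466 to 0.0167, -0.05 to -0.00901, -0.00921 to 0.0732, 0.0357 to 0.094 and 0.0276 to 0.0883, and the shares from 0.3205% to 0.3302%, 0.3116% to 0.3292%, 0.3345% to 0.3447% and 0.3294% to 0.3331%. With the replicate number as a block, 1, 6, 6, 14 and 6 members passed, and Rpl34 (time in WT, adjusted p = 0.0614) and Rpl39 (adjusted p = 0.0563) were lost. Deviations of same-numbered livers correlated at -0.0106 on average (18 pairs), against 0.00527 for others. The causes were not tested. Members at 3 reads or fewer cannot be measured at this depth.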
